A study of Mus musculus with 6 samples.

Results

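The 36 genes described here encode the integrin receptor subunits, the laminin chains and the other basement membrane proteins that anchor an epithelium to its matrix. They were given as a list by symbol, namely 18 integrin subunits, 10 laminin chains and 8 further basement membrane genes, out of 20887 genes that could be named on the array. Of the 36 genes, 35 were matched to 48 probes, and Itga10 was not analysed here. A gene was tested where its sample-channel signal exceeded background clearly on 3 arrays or more. By this rule 33 genes were tested, each of them well above background on all 6 arrays in its brightest probe. Itga2 was well above background on none of the arrays, and Itgb8 on 1 WT array and no KO array, so neither has a value here.

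Collecting duct cells, as the labels call them, were compared between KO (3 arrays) and WT (3 arrays) newborn mice. The bradykinin B2 receptor gene Bdkrb2 was floxed and targeted by Cre in KO mice and intact in WT mice. KO pups were Hoxb7cre+; Bdkrb2f/f; R26RtdTomato and WT pups Hoxb7cre+; R26RtdTomato; Bdkrb2+/+, all on a C57BL/6 background, and the cells were sorted on postnatal day 1 as GFP and dsRED positive. Both groups carried the Cre and the tdTomato reporter, and food with 5% sodium was given to every animal, so the groups differ by genotype under salt and no group without salt was among them. Hoxb7 drives Cre in the ureteric bud lineage, so deletion is meant to be limited to that lineage, but its extent was not measured here. The number of animals behind a sample is not given in the labels. The single Bdkrb2 probe was well above background on no array and could not check the genotype labels.

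A basement membrane is a thin sheet of laminin and type IV collagen networks that nidogens, perlecan and agrin hold together. A laminin is a trimer of an α, a β and a γ chain, and the α chain carries the main site that integrins bind. Integrins are α and β pairs in the cell membrane that bind matrix outside and the actin cytoskeleton inside. In the developing kidney the ureteric bud secretes nephronectin into its basement membrane, the surrounding mesenchyme carries its receptor integrin α8β1, and signalling across this contact supports the ingrowth and branching of the bud.

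Each array carried the sample in Cy5 and the RNA of WT replicate 1 in Cy3 as a common reference, so all levels below are log2 ratios of a sample to that reference. The array of WT replicate 1 set an RNA against itself, so its ratios hold no difference between samples. In absolute size they still had a median of 0.105 over the tested members and reached 0.479. The 75th percentile of the processed log2 Cy5 signal was 8.14 to 8.27 on the WT arrays and 9.10 to 9.29 on the KO arrays. The Cy3 signal of the same reference RNA was likewise 8.15 to 8.26 and 9.09 to 9.28, so raw signals are not comparable between arrays. After scaling each array to that percentile, the Cy3 signal of a tested member varied over the 6 arrays with a median SD of 0.082 on the log2 scale (range 0.021 to 0.333). The scaled Cy3 signal differed between the KO and WT arrays by a median of 0.039 in absolute size, against 0.777 for the Cy5 signal of the same 33 genes. The KO replicate 1 array stood apart from the other KO arrays, with a median absolute difference over all 14755 genes of 0.207 and 0.215 from KO replicates 2 and 3, which differed from each other by 0.120. It was the KO array farthest from the median of its group for 19 of the 33 genes and for 7892 of all 14755, so this was not particular to the members. Results that rest on it are given with and without it. No spot was saturated.

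**Figure D1:**
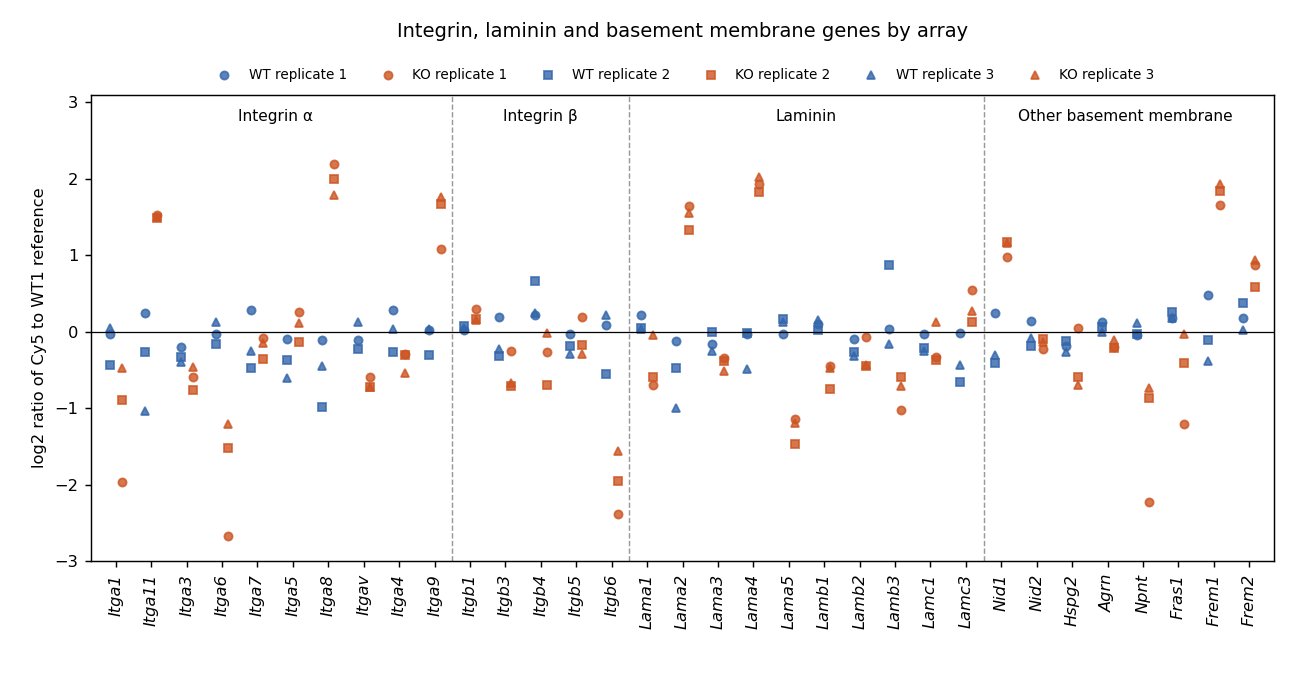
Log2 ratio of the sample (Cy5) to the WT replicate 1 reference (Cy3) for the 33 tested genes on each array, with blue marks for WT and orange for KO and the marker shape giving the replicate. Itga8, Lama4, Lama2, Itga11 and Frem1 lay above every WT value on all KO arrays, Itgb6, Itga6 and Lama5 below, and KO replicate 1 was the lowest mark for Itga6, Itga1, Npnt and Fras1.

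The list split evenly by direction. Of the 33 tested genes 9 were higher in KO, 9 were lower and 15 did not pass the test (limma, 2-sided, adjusted p under 0.05 over all 14755 genes tested). That is 54.5% of the members called, against 35.3% of all genes tested, with 15.4% of all genes higher and 20% lower. The median difference (KO minus WT) was -0.23 for the members and -0.02 for all genes, and the median absolute difference was 0.65 against 0.28. The values of the groups did not overlap in 25 of the 33 genes, against 52.1% of all genes. The genes that rose were Itga8, Itga9, Itga11, Lama2, Lama4, Lamc3, Nid1, Frem1 and Frem2, and those that fell were Itga6, Itgav, Itgb4, Itgb6, Lama1, Lama5, Lamb1, Lamb3 and Npnt. With median centring in place of loess, the median difference of all genes moved to 0.24. Itgav, Itgb4, Lama1 and Lamb1 were then no longer called, and 5 genes were lower in place of 9. In that run 10 members were higher, and 4045 of all 14755 genes were called. With slide row as a block, 2 members were lower and 7 higher, and 15% of all genes were called. WT replicate 1 alone shares a row with the KO arrays, so differences with that block set the KO arrays against WT replicate 1 alone.

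**Figure D2:**
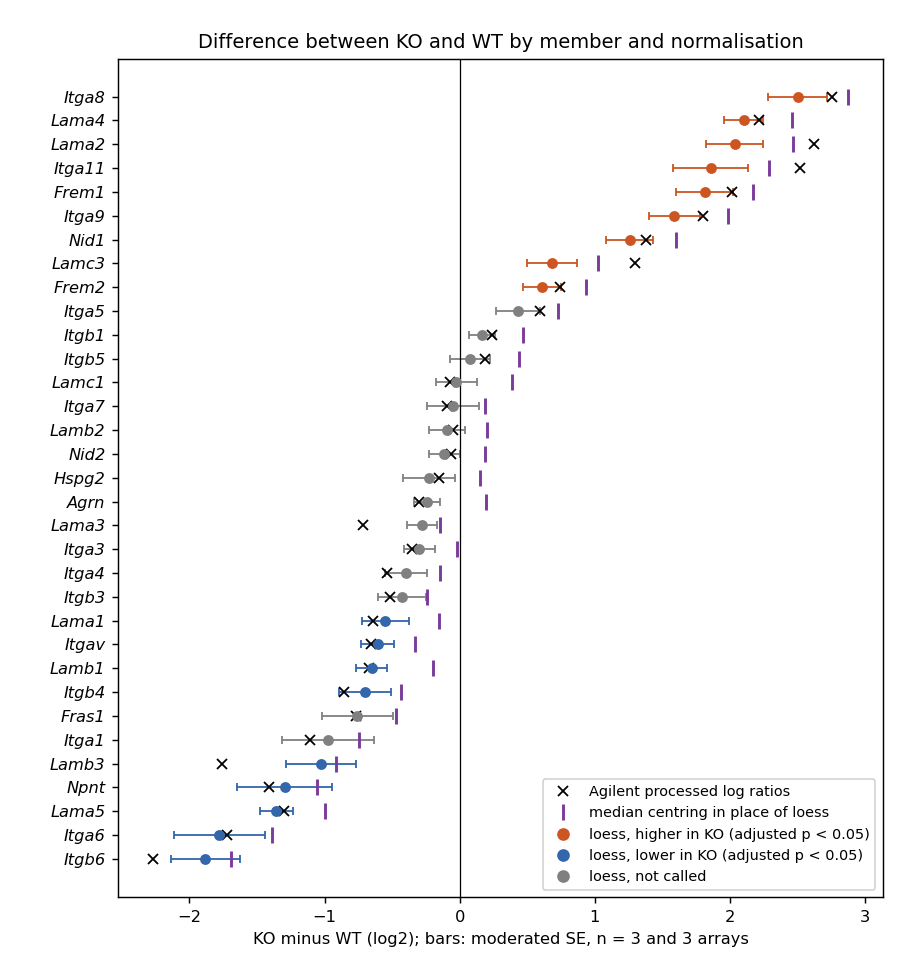
Difference between KO and WT (log2, x axis) for each tested gene, with circles and bars for the estimate after loess and its moderated SE (n = 3 and 3 arrays), crosses for the Agilent processed log ratios and vertical ticks for median centring. The 9 genes higher and 9 lower in KO kept their sign under all 3 normalisations, and the ticks lie to the right of the circles throughout.

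The integrin α8 chain rose most, while nephronectin, the ligand of integrin α8β1, fell. The log2 ratios of Itga8 were -0.10, -0.98 and -0.45 in WT replicates 1 to 3 and 2.20, 1.99 and 1.78 in KO replicates 1 to 3. All KO values lay above all WT values by more than the spread within either group. The difference was 2.50 ± 0.22 (moderated SE, n = 3 and 3), a 5.67-fold higher level, with a limma adjusted p of 0.000239. For Npnt the ratios were -0.04, -0.03 and 0.11 on the WT arrays and -2.23, -0.87 and -0.74 on the KO arrays. The groups did not overlap, and KO replicate 1 lay far below the other KO arrays. The difference was -1.29 ± 0.35 (limma adjusted p = 0.0231), and without KO replicate 1 it was -0.82 ± 0.10 (adjusted p = 0.000837). The call was lost without any of the WT replicates (adjusted p up to 0.0803) and with slide row as a block (0.17). It was also lost with the Agilent ratios (0.0695) and with Cy5 alone (0.0828). A second Npnt probe gave -0.65 ± 0.15 and was called in the fit over all probes (adjusted p = 0.0159).

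The promoters of this receptor and ligand are shown because both genes moved, in opposite directions. Sequences are the 250 bases before the start site from the RefSeq table of build GRCm38.p6, for Itga8 at chr2:12301945-12302194, minus strand, and for Npnt at chr3:132950292-132950541, minus strand, the outer of its listed start sites. Capitals mark matches on either strand to the GC box GGGCGG, the TFAP2 motif GCCNNNGGC, the MEIS motif TGACAG, the grainyhead motif AACCNGTT, the AP-1 motif TGANTCA or the TATA box TATAAA, and adjacent or overlapping matches run together.
Itga8: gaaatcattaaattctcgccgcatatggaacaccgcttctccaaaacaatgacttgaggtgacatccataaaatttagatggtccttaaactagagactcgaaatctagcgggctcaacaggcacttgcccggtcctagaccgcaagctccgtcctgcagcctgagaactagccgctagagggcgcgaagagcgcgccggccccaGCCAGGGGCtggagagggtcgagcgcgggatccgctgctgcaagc
Npnt: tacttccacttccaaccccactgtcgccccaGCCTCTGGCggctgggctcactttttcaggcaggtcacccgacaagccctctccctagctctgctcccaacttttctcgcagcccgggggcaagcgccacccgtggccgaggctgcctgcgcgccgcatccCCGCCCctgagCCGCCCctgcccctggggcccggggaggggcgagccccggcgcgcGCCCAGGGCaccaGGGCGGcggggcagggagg
The Itga8 window held 1 TFAP2 match and no GC box, and the Npnt window held 2 TFAP2 matches and 3 GC boxes. Over all 32851 promoters of that length in the table, 13.7% held a TFAP2 match and 32.7% a GC box. A match is only a run of letters.

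Of the other α chains that bind the RGD motif of fibronectin and related proteins, Itgav fell and Itga5 did not pass the test. Itgav, whose chain pairs with several β chains, had ratios of -0.10, -0.23 and 0.13 on the WT arrays and -0.59, -0.72 and -0.72 on the KO arrays. Each KO array lay below each WT array, and the difference was -0.61 ± 0.12 (limma adjusted p = 0.00602). A second Itgav probe gave -1.08 ± 0.21 and was also called. The brighter probe did not pass with median centring (0.284) or with slide row as a block (0.0857). Itga5, the fibronectin receptor chain, gave 0.43 ± 0.16 and did not pass the test (adjusted p = 0.0695), with overlapping groups. It was called higher with median centring (0.73, adjusted p = 0.0217), with Cy5 alone (0.66, 0.0367), with the replicate block (0.0444) and without WT replicate 1 (0.56, 0.0381). It was not called with slide row as a block (0.17, 0.627) or without any other single array.

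Of the α chains outside the collagen, laminin and RGD groups, Itga9 rose and Itga4 did not pass the test. Itga9, whose chain binds tenascin-C, osteopontin and VCAM-1, had ratios of 0.02, -0.31 and 0.03 on the WT arrays and 1.09, 1.67 and 1.76 on the KO arrays. It rose by 1.59 ± 0.19, a 3.01-fold higher level (limma adjusted p = 0.000684), and by 1.80 without KO replicate 1, its lowest KO array. Its scaled Cy3 reference signal was also 0.43 higher on the KO arrays, the largest such shift among the members. Itga4, which binds fibronectin and VCAM-1 and is known from leukocytes, gave -0.40 ± 0.15 and did not pass (adjusted p = 0.0805), and it was called without WT replicate 2 (-0.54, adjusted p = 0.0272). A second Itga4 probe was well above background on no array.

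Among collagen-binding α chains, Itga11 rose and Itga1 did not pass the test. Itga11 is a receptor for fibrillar collagen known from fibroblasts. Its ratios were 0.25, -0.27 and -1.03 on the WT arrays and 1.53, 1.49 and 1.51 on the KO arrays, so the KO arrays lay close together and the WT arrays were spread. The difference was 1.86 ± 0.28 (3.63-fold higher, limma adjusted p = 0.00175), and 2.52 from the Agilent ratios, which add no offset to the signals. Itga1, which also binds type IV collagen, had ratios of -0.03, -0.43 and 0.05 on the WT arrays and -1.96, -0.89 and -0.48 on the KO arrays. Every KO value lay below every WT value, but KO replicate 1 was far from the rest. The difference was -0.97 ± 0.34 (adjusted p = 0.0584), and it was -0.55 ± 0.18 without KO replicate 1, where it was called (adjusted p = 0.0421). The second Itga1 probe gave -0.45 ± 0.29 with overlapping groups.

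Of the laminin-binding α chains, Itga6 fell, and Itga3 and Itga7 did not pass the test. Itga6 pairs with β1 or with β4, the latter in hemidesmosomes. Its ratios were -0.03, -0.16 and 0.13 on the WT arrays and -2.68, -1.52 and -1.20 on the KO arrays, with all KO arrays more than a log2 unit below all WT arrays. It differed by -1.78 ± 0.33 (3.43-fold lower, limma adjusted p = 0.00478), and by -1.34 ± 0.13 without KO replicate 1 (adjusted p = 0.000384). With slide row as a block its adjusted p was 0.0594. Itga3, a laminin receptor chain of ureteric and podocyte cells, gave -0.30 ± 0.11 (adjusted p = 0.0789), and Itga7, known from muscle, gave -0.05 ± 0.19 (adjusted p = 0.871).

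Of the 5 tested β chains, 2 fell and 0 rose (40% called, against 35.3% of all genes). Itgb6 pairs only with αv, is found in epithelia and activates latent TGF-β. Its ratios were 0.09, -0.55 and 0.21 on the WT arrays and -2.39, -1.95 and -1.56 on the KO arrays, with a wide gap between the groups. The difference was -1.88 ± 0.26 (3.68-fold lower, limma adjusted p = 0.00115), the largest decrease among the members. A second, dimmer probe gave -0.60 ± 0.13. It was well above background on 1 KO array only, so its WT arrays alone met the filter. Itgb4, the partner of α6, had ratios of 0.22, 0.66 and 0.24 on the WT arrays and -0.27, -0.70 and -0.02 on the KO arrays. It differed by -0.70 ± 0.19 (adjusted p = 0.0249), a call lost without WT replicate 2, WT replicate 3 or KO replicate 2 (adjusted p up to 0.0792), with median centring (0.181) and with slide row as a block (0.251).

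Itgb1, the common partner of most α chains listed here, changed little in its brighter probe. Its ratios were 0.02, 0.07 and 0.05 on the WT arrays and 0.30, 0.17 and 0.15 on the KO arrays. The difference of 0.16 ± 0.10 did not pass (limma adjusted p = 0.216), and its second probe gave -0.17 ± 0.21, so the probes differed in sign. Itgb5, another αv partner, gave 0.08 ± 0.15 (adjusted p = 0.706). Itgb3, which pairs with αv in vessels and osteoclasts, gave -0.43 ± 0.18 (adjusted p = 0.0948), and -0.57 ± 0.15 without KO replicate 1, where it was called (adjusted p = 0.0209).

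The laminin α chains separated into 2 higher and 2 lower in KO, with Lama3 not passing (80% called, against 35.3% of all genes). Lama4, the α chain of vessel and mesenchymal basement membranes, had ratios of -0.04, -0.01 and -0.48 on the WT arrays and 1.93, 1.82 and 2.02 on the KO arrays. The difference of 2.10 ± 0.15 (4.29-fold higher, limma adjusted p = 0.000182) exceeded the spread in either group. Lama2, the α chain of laminins around muscle and mesenchyme, had ratios of -0.13, -0.47 and -0.99 on the WT arrays and 1.64, 1.33 and 1.55 on the KO arrays. It rose by 2.04 ± 0.21 (4.10-fold, adjusted p = 0.000358), and a second probe gave 1.86 ± 0.17. From the Agilent ratios Lama2 rose by 2.62.

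Lama5, the α chain of laminins in mature tubule and glomerular basement membranes, fell. Its ratios were -0.04, 0.17 and 0.13 on the WT arrays and -1.14, -1.47 and -1.20 on the KO arrays. The groups lay about a log2 unit apart or more, and the difference was -1.36 ± 0.12 (2.56-fold lower, limma adjusted p = 0.000257). Lama1, the α chain of early kidney basement membranes, had ratios of 0.22, 0.04 and 0.04 on the WT arrays and -0.70, -0.60 and -0.05 on the KO arrays. KO replicate 3 lay next to the WT values, and the difference was -0.55 ± 0.17 (adjusted p = 0.0406). That call was kept only without KO replicate 3 when single arrays were left out (adjusted p up to 0.122), and was lost with median centring (0.681) and with slide row as a block (0.13). Lama3, an α chain of epithelial anchoring laminin, gave -0.28 ± 0.11 (adjusted p = 0.082). It was called lower with the Agilent ratios (-0.72, adjusted p = 0.0164), with Cy5 alone (-0.84, 0.00574) and in the mean of probes (-0.38, 0.0191). Median centring (-0.15, 0.652), slide row as a block (-0.26, 0.355) and the runs without a single array gave no call. Its second probe gave -0.47, and was well above background on 1 KO array only, so its WT arrays alone met the filter.

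The promoters of Lama2 and Lama5 are shown as the α chains of opposite direction that the table holds, at chr10:27616943-27617192, minus strand, and chr2:180225860-180226109, minus strand (RefSeq, GRCm38.p6), with capitals as above.
Lama2: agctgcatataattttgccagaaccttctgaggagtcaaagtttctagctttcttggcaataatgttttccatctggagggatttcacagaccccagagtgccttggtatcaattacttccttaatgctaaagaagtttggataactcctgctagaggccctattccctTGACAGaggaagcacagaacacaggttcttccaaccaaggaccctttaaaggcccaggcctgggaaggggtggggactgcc
Lama5: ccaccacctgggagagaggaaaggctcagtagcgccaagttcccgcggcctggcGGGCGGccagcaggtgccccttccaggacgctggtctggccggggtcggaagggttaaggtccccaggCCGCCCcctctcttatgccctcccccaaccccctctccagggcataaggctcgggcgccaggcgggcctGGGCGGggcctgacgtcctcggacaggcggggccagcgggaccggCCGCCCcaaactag
The Lama2 window held 1 MEIS match and was 47.2% G or C, and the Lama5 window held 4 GC boxes and was 72.4% G or C. A MEIS match was held by 15.9% of all promoters. The table held 31 windows for 25 of the 36 genes, and these included 8 windows of 7 genes that rose and 9 of 6 genes that fell. A GC box was found in 1 of those 8 and 3 of those 9 windows, and a MEIS match in 3 and 2. Among the member windows the grainyhead motif was found only in that of Frem2, and neither the AP-1 motif nor the TATA box was found, which 6.75% and 12.4% of all promoters held.

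Among the β and γ chains of laminin, Lamb1 and Lamb3 fell, Lamc3 rose, and Lamb2 and Lamc1 did not pass. Lamb1 is the β chain of early basement membranes and Lamb2 that of mature ones. The ratios of Lamb1 were 0.10, 0.02 and 0.15 on the WT arrays and -0.45, -0.76 and -0.48 on the KO arrays. The groups were apart, with a difference of -0.65 ± 0.12 (limma adjusted p = 0.00375), and the adjusted p was 0.0517 with slide row as a block and 0.559 with median centring. Lamb2 gave -0.09 ± 0.13 (adjusted p = 0.607).

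Lamb3, the β chain that joins Lama3 in anchoring laminin, had ratios of 0.04, 0.88 and -0.16 on the WT arrays and -1.02, -0.60 and -0.71 on the KO arrays. WT replicate 2 was high, and the difference was -1.03 ± 0.26 (limma adjusted p = 0.0169, and 0.199 with slide row as a block). From the Agilent ratios it was -1.76. Lamc1, the γ chain of most laminins, gave -0.02 ± 0.15 (adjusted p = 0.919) in overlapping groups. Lamc3, a γ chain of restricted expression, had ratios of -0.01, -0.65 and -0.43 on the WT arrays and 0.55, 0.13 and 0.27 on the KO arrays. It rose by 0.68 ± 0.18 (adjusted p = 0.0211), and by 1.30 from the Agilent ratios. The call was lost without WT replicate 2 or WT replicate 3 (limma adjusted p up to 0.0791) and with slide row as a block (0.326).

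Of the proteins that link the laminin and collagen networks, nidogen 1 rose and the other 3 did not pass the test. Nid1 had ratios of 0.24, -0.41 and -0.31 on the WT arrays and 0.98, 1.17 and 1.16 on the KO arrays. The difference was 1.26 ± 0.17 (2.40-fold higher, limma adjusted p = 0.00125). The other Nid1 probes, both much dimmer, gave 0.33 ± 0.15, not called, and 0.63 ± 0.11. The latter was well above background on 1 WT array only, so its KO arrays alone met the filter. Nid2, its paralog, gave -0.11 ± 0.11 (adjusted p = 0.474), and agrin (Agrn), a heparan sulphate proteoglycan of the glomerular basement membrane, gave -0.24 ± 0.10 (adjusted p = 0.087, and 0.0288 with Cy5 alone). Perlecan (Hspg2), the proteoglycan of most basement membranes, had ratios of -0.19, -0.12 and -0.26 on the WT arrays and 0.05, -0.60 and -0.70 on the KO arrays. In this probe KO replicate 1 lay above the WT arrays and the other KO arrays below them. The difference was -0.23 ± 0.19 (adjusted p = 0.389), and without KO replicate 1 it was -0.46 ± 0.10 and called (adjusted p = 0.00823). A second Hspg2 probe, not called (-0.34 ± 0.14), had KO values of -0.61, -0.37 and -0.16, so there KO replicate 1 was the lowest array.

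Fras1, Frem1 and Frem2 form a complex beneath embryonic epithelia, and its loss causes Fraser syndrome and missing kidneys. Frem1, which mesenchymal cells secrete, had ratios of 0.48, -0.10 and -0.39 on the WT arrays and 1.66, 1.84 and 1.93 on the KO arrays. It rose by 1.81 ± 0.21 (3.52-fold, limma adjusted p = 0.000567). Frem2 had ratios of 0.18, 0.38 and 0.02 on the WT arrays and 0.88, 0.59 and 0.94 on the KO arrays. The groups were close but did not overlap, and it rose by 0.61 ± 0.14 (adjusted p = 0.0109), a call lost without WT replicate 3 (0.0514) and with slide row as a block (0.0996). Fras1 had ratios of 0.18, 0.25 and 0.18 on the WT arrays and -1.21, -0.41 and -0.03 on the KO arrays. The difference was -0.76 ± 0.26 and did not pass (adjusted p = 0.0554), and without KO replicate 1 it was -0.43 ± 0.13 and called (adjusted p = 0.0305).

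**Figure D3:**
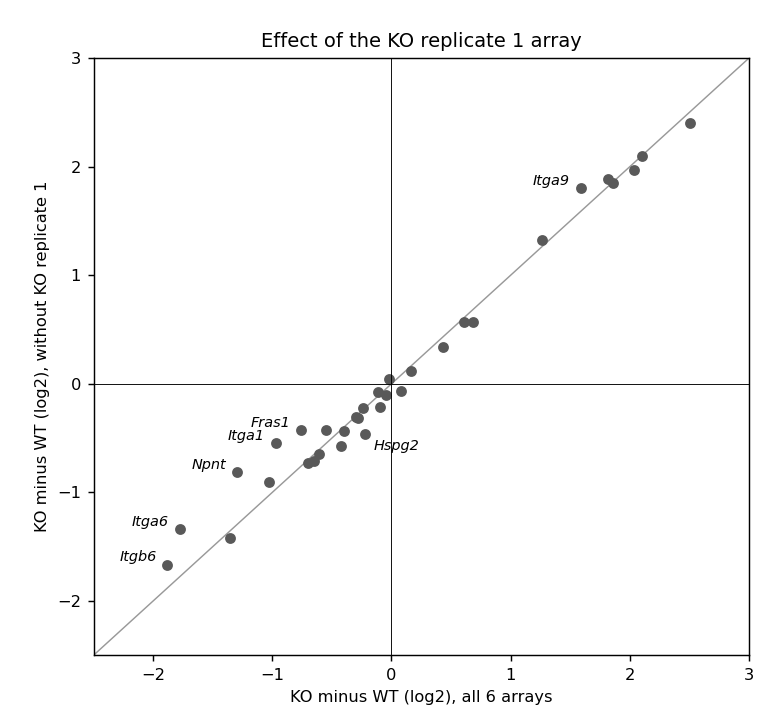
Difference between KO and WT (log2) of the 33 tested genes from all 6 arrays (x axis) against the same difference without the KO replicate 1 array (y axis), with the line of equality and names where the values differ by more than 0.2. Itga6, Npnt, Itga1, Fras1 and Itgb6 lie above the line, with smaller decreases without that array, and Hspg2 lies below it.

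Without KO replicate 1, Itga1, Itgb3, Fras1 and Hspg2 gained a call as lower in KO and Lama1 lost its call. In that run 12 members were lower and 9 higher, and 5709 of all 14755 genes were called, against 5213 in the main fit. The KO array values of Npnt, Itga6, Itga1 and Fras1 were lowest on the KO replicate 1 array in each case.

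Probes of the same gene mostly shared a direction but not a size. Of the 44 member probes tested, 23 were called, 11 higher and 12 lower, in a fit over all 29811 tested probes, of which 25.3% were called. Of 10 genes with several tested probes, 9 had the same sign in all of them, and Itgb1 did not. The brightest probe of Itgb6 differed by -1.88 and the second by -0.60, and those of Nid1 ranged from 0.33 to 1.26. In the second probes of Itgb6 and Lama3, signal was well above background on 1 KO array only, and in the dimmest Nid1 probe on 1 WT array only. These probes met the filter through the brighter group alone, so their calls, counted above, are not used as support.

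**Figure D4:**
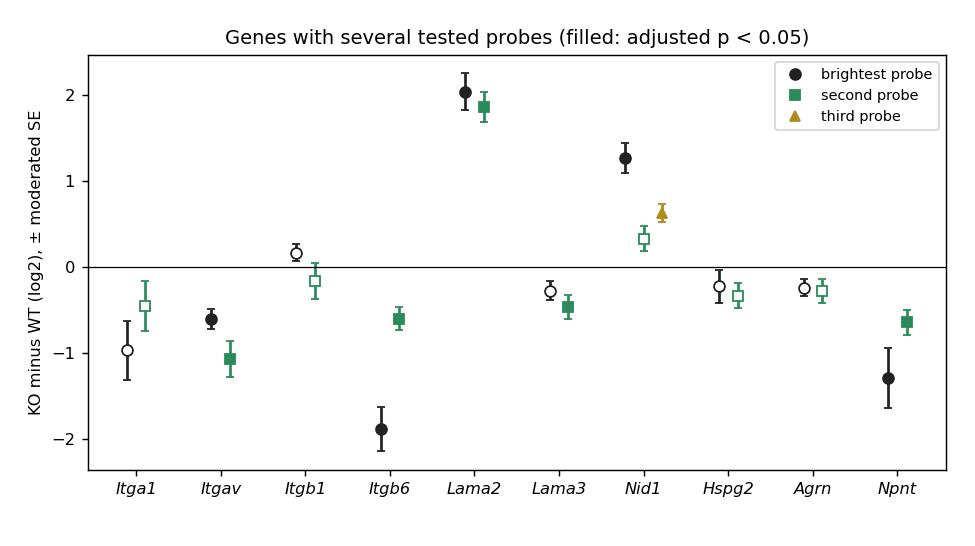
Difference between KO and WT (log2, with moderated SE, n = 3 and 3 arrays) for each tested probe of the 10 genes with several tested probes, ordered by signal and filled where the adjusted p over all probes was under 0.05. Both Lama2 probes lie near 2, the Itgb6 and Nid1 probes differ in size, and the Itgb1 probes lie on either side of 0.

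Other genes of the same pathway were taken by list. Of 19 further basement membrane genes 2 rose and 7 fell, with a median of -0.14 (47.4% called, against 35.3% of all genes). Tinagl1, a tubulointerstitial nephritis antigen relative, differed by -1.33 ± 0.14 (limma adjusted p = 0.000416), the type IV collagen chain Col4a4 by -1.42 ± 0.19 (0.00118), Col18a1 by -0.91 ± 0.10 (0.000477) and the laminin-binding netrin Ntn4 by -0.83 ± 0.11 (0.00122). Ntn4 was well above background on 2 of the KO arrays, and the Agilent ratios gave -2.69 for it. The Col18a1 call was lost with median centring (0.095). The members that rose were the peroxidase gene Pxdn (0.63 ± 0.10, adjusted p 0.0514 with slide row as a block) and Col7a1 (0.74 ± 0.24, adjusted p = 0.0458, lost without WT replicate 2 or 3 or KO replicate 1 or 2, with the Agilent ratios and with slide row as a block). Col4a1 and Col4a2, the chains of the common collagen IV network, were chosen after their values were seen and gave -0.12 ± 0.13 and -0.14 ± 0.15 without passing, and 0.24 and 0.22 with median centring.

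Of 14 other integrin ligands 7 rose and 2 fell, with a median of 0.37 (64.3% called, against 35.3% of all genes). Tnc and Vtn, both counted among those that rose, were well above background on no WT array. They met the filter through their KO arrays alone, so their calls are not used as support. Their signals were at least 1.72-fold (Tnc) and 1.27-fold (Vtn) higher in KO. Tgfbi rose by 3.25 ± 0.37 (limma adjusted p = 0.000553), Emilin1 by 1.57 ± 0.19 (0.000751) and fibronectin (Fn1) by 1.17 ± 0.17 (0.0014). The members that fell were osteopontin (Spp1), at -1.87 ± 0.29 (0.0021), and Egfl6, at -1.11 ± 0.28 (0.0171).

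Of 9 other matrix receptors 1 rose and 5 fell, with a median of -0.61 (66.7% called, against 35.3% of all genes). The collagen receptor kinase Ddr2 was 4.01-fold higher (limma adjusted p = 0.00111) and 6.05-fold from the Agilent ratios, while its epithelial relative Ddr1 fell (-0.75 ± 0.15, 0.00542). The tetraspanin Cd151, a partner of laminin-binding integrins, fell (-0.64 ± 0.09, 0.00168), as did the syndecan Sdc4 (-1.39 ± 0.28, 0.00625). The calls of Ddr1 and Cd151 were lost with median centring (0.157 and 0.351), and that of Ddr1 also with Cy5 alone (0.0979). Of 19 cytoplasmic adaptors of integrins 2 rose and 4 fell, with a median of -0.28, and the 31.6% called lay below the 35.3% of all genes. Lims2 differed by -0.73 ± 0.12 (0.00257), Tns1 by -0.93 ± 0.16 (0.003) and paxillin (Pxn) by -0.40 ± 0.10 (0.0163), and zyxin (Zyx) rose by 0.38 ± 0.11 (0.0239). The calls of Pxn and Zyx were lost without WT replicate 1 or WT replicate 3, those of Lims2, Pxn and Zyx with slide row as a block, and those of Lims2, Tns1 and Pxn with median centring. Outside the member list, the Frem family gene Frem3 was well above background on no WT array and met the filter through its KO arrays alone, so no test is cited for it. Its signal was at least 1.91-fold higher in KO (mean log2 signal 7.29 against a measured 6.34 and a bound of 6.36 in WT). The bound is the lowest signal well above background on each WT array, per channel and open to dye bias. Itgam, known from leukocytes, gave 0.62 ± 0.22 without passing (adjusted p = 0.0585), with KO replicate 1 far above the other KO arrays, and without that array 0.34 ± 0.10, which was called (adjusted p = 0.0271).

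Lists of cell type markers were compared between KO and WT as well, where 15.4% of all genes tested were higher in KO and 20% lower. All 7 tested principal cell markers and all 8 intercalated cell markers fell, with summed normalised Cy5 signals of 32013 to 33140 and 15686 to 24764 on WT arrays and of 7539 to 9928 and 3253 to 4070 on KO arrays. Of 9 stroma markers 7 rose (5454 to 17275 in WT and 38164 to 42092 in KO), and of 6 nephron progenitor markers 5 rose (10035 to 13242 in WT and 20633 to 40808 in KO). All 6 endothelium markers fell (28237 to 33382 and 15565 to 16041). Of 5 immune markers 4 rose and 1 fell (1243 to 1866 and 2292 to 3457), 1 of 6 ureteric tip markers rose (13187 to 25323 and 21388 to 23124), 1 of 5 podocyte markers rose (4424 to 9499 and 5641 to 8725), and 1 of 5 proximal tubule markers fell (10176 to 23564 and 12231 to 15116). Scnn1g and Cd68 were not tested. Every tested marker was well above background on all 3 arrays of each group except the progenitor marker Tmem100, which was so on 1 WT array. Its KO arrays alone met the filter, so the call of Tmem100, counted among the 5 above, is not used as support.

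The WT arrays differed among themselves in the stroma list, with median ratios of 0.12, -0.80 and -0.89 for WT replicates 1 to 3. Itga11, Lama2, Itga8, Nid1, Frem1 and Lamc3 were likewise highest in WT replicate 1 among the WT arrays. Lama4 was not, with its highest WT value in replicate 2, and Frem2 and Itga9 were not either. A maximum in WT replicate 1 was not particular to stroma or to genes that rose. The podocyte, proximal tubule and immune lists had it too, and the remaining marker lists did not. Of the members not called, Itga3, Itga4, Itga5, Itga7, Itgb3, Itgb5, Lamb2, Lamc1, Nid2 and Agrn had it. Itga1, Itgb1, Lama3, Hspg2 and Fras1 did not. Of the members that fell, only Lama1 had it. Its share among all genes was not tested. The part of these cell type shifts in the differences of the members was not tested, and fewer cells of a type cannot be told apart from less RNA per cell in these samples. The labels name only Bdkrb2 F/F parents, which yield no wild-type pups, so litter cannot be told apart from genotype.

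**Figure D5:**
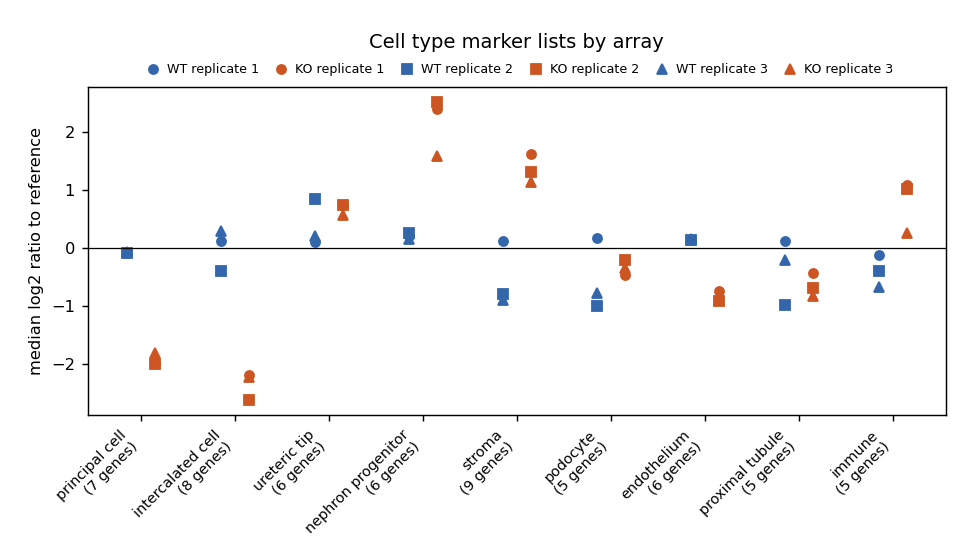
Median log2 ratio to the WT replicate 1 reference over the tested genes of each cell type marker list (number of genes in brackets) on each array, with blue marks for WT and orange for KO. Principal, intercalated and endothelium lists lay lower on all KO arrays than on all WT arrays, stroma, nephron progenitor and immune lists higher, and the other lists overlapped between the groups.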

How the data were processed

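RNA from 3 KO and 3 WT samples was measured on 2-colour Agilent arrays. Labelling used 0.5 µg of total RNA. The deposited median spot and background intensities, the processed intensities and their log10 ratio (Cy5 over Cy3) were written by Agilent Feature Extraction 10.7.3.1, per the file headers, and version 6.1 is named in the submitters' processing notes. The deposited series matrix repeats these log10 ratios. The series text calls the design single-colour, but labels and files hold 2 channels. All arrays share a slide and a scan. Replicates are biological by the series text, and p-values measure the spread between these samples.

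Median intensities were corrected by normexp (offset 50) and normalised by loess, control spots at weight 0. Outlier spots (196 to 403 per array) were left out, and 117 probes lacking a value with them. Accessions were matched to RefSeq symbols (GRCm38.p6 table), naming 27509 of 55681 probes. The brightest probe well above background on at least 3 arrays stood for a gene. The offset shrinks differences of dim probes.

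Differences (KO minus WT, log2) were tested with lmFit and eBayes of limma 3.58.1 (R 4.3.3) over 14755 genes, and separately over 29811 probes, with Benjamini-Hochberg adjustment at 0.05. Errors are moderated SEs. Folds are 2 to the power of the difference. The fit was tested on simulated data. All tested members were named, and of each other pathway list up to 4 genes with the smallest p and some called in a direction that at most 5 genes took. Members, lists and tests were chosen with earlier results of these data known. The 3 arrays a group limit the precision. A related gene outside the member list is not reported here.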

Additional observations from a re-analysis of the deposited data

How the results depend on the processing

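The 18 called members kept their direction under every alternative run. The number that also kept the call was 17 with the Agilent ratios, the series matrix or Cy5 alone, 14 with median centring, 18 with the stricter filter, no filter, the mean of probes or the replicate block, and 9 with slide row as a block. Members lower in KO went from 9 to 5 with median centring and 2 with slide row as a block, and the called member probes from 23 to 10 with slide row as a block. All genes changed went from 5213 to 2219 with slide row as a block. Of called genes 43.5% were higher after loess and 74.4% of 4045 after median centring. When single arrays were left out, members higher ranged from 7 to 10, members lower from 6 to 12, member probes from 16 to 28 and all genes changed from 3243 (without WT replicate 3) to 5709. Sign changes occurred only in members not called. With median centring these were Itga7 (0.19), Lamb2 (0.20), Lamc1 (0.39), Nid2 (0.19), Hspg2 (0.15) and Agrn (0.19). The mean of probes gave -0.00051 for Itgb1, and Itgb5 gave -0.066 with slide row as a block and -0.062 to 0.178 when single arrays were left out (below 0 without KO replicate 1). Itga7 ranged from -0.211 to 0.17 (above 0 without WT replicate 1 or KO replicate 2) and Lamc1 from -0.182 to 0.0655 (above 0 without WT replicate 1, KO replicate 1 or KO replicate 2). The cause of these changes was not tested. The replicate numbers share only a number: deviations of same-numbered arrays from their group means correlated at 0.135, 0.083 and 0.201, and the replicate block gave 10 members higher, 12 lower, 22 member probes and 5131 genes changed. Normexp on mean intensities could not be run, as the scanner data hold median but no mean spot signals. The mean of probes does not apply to the count of probes. The offset, low signal and 3 arrays a group limit what dim probes show.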
